A study of Mus musculus with 4 samples.

Results

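The immediate early and cell handling response genes are 37 genes that many cell types switch on within minutes of a stimulus, tissue dissociation and sorting included. They were taken by symbol from a list of such genes, and all 37 were found among the 25124 genes of the deposited table. Of these, 35 had a mean of at least 25.8 normalised reads over the 4 libraries (the value of 1 CPM at the mean library total) and were tested with 13810 genes in all. Fosl1 and Dusp2 were below that level.

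RNA came from lung cells that were sorted by flow cytometry as airway epithelium, taken from wild-type C57BL/6 mice. All mice had been sensitised with house dust mite (HDM), an allergen source used to model allergic asthma. The SCD1 inhibitor group (2 libraries) was additionally given an inhibitor of stearoyl-CoA desaturase 1, which introduces a double bond into saturated fatty acids, and the DMSO group (2 libraries) was given the solvent dimethyl sulfoxide. The labels do not say whether the libraries of a group came from separate animals, so p-values measure the spread between these samples, which may be technical, and no unsensitised or unsorted cells were analysed here.

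Immediate early genes need no new protein synthesis for their transcription. Mitogen-activated protein (MAP) kinases, the serum response factor SRF, CREB and NF-κB, all present before the stimulus, switch them on, and most of their mRNAs decay quickly. Many of their products are transcription factors that act on a later wave of genes, and others, such as the dual-specificity phosphatases and the mRNA-decay protein tristetraprolin, shut the response down. Enzymatic dissociation and sorting of lung cells can induce the same genes.

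The libraries held 24591122 to 27013663 reads and 14797 to 15924 genes above 0. The deposited values are reads divided by 1 size factor per library and are given as normalised reads. Epcam, the surface protein that marks epithelial cells, had 6275 and 6732 normalised reads in the SCD1 inhibitor libraries and 5026 and 6466 in the DMSO libraries, and red blood cell markers were at or near 0. Markers of other cell types were also present, and some moved with single libraries. The 13 endothelial markers summed to 6312 and 8600 normalised reads in the SCD1 inhibitor libraries and to 5556 and 17084 in the DMSO libraries, with none at 0 in every library. DMSO replicate 2 was the lowest library for none of the 13. The sums of the 20 leukocyte markers were 8531 and 6254 normalised reads in the SCD1 inhibitor libraries and 8975 and 11837 in the DMSO libraries, with Nkg7, S100a8 and S100a9 at 0 throughout and 12 at the level for testing. The 14 stromal markers, mostly Gsn, which epithelium also expresses, summed to 78280 and 90549 normalised reads in the SCD1 inhibitor libraries and to 96321 and 110410 in the DMSO libraries, with Lum and Tcf21 at 0 throughout.

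DMSO replicate 2 stood apart from the other 3 for the immediate early genes. All 37 genes together took 0.924% and 0.711% of the SCD1 inhibitor libraries and 0.757% and 0.355% of the DMSO libraries. Centred on each gene's 4-library mean, the median log2 level of the 35 tested was 0.48 and 0.06 in the SCD1 inhibitor libraries. It was 0.20 and -0.67 in the DMSO libraries. The same median over all genes tested lay between 0.0047 and 0.0115 in each library. DMSO replicate 2 was the lowest of the 4 libraries for 30 of the 35 genes, a position it held for 29.2% of all genes tested. SCD1 inhibitor replicate 1 was the highest for 22 of the 35, against 22.0% of all genes tested. The summed endothelial, leukocyte and stromal markers were highest in DMSO replicate 2, and their part in the low immediate early levels there was not tested. The median centred log2 level of the 11 stromal markers tested was 0.46 in DMSO replicate 2 and 0.40 in SCD1 inhibitor replicate 2, so stroma did not set DMSO replicate 2 apart. In bulk RNA, fewer responding cells and less mRNA per cell cannot be told apart. Log2 fold changes are therefore given with and without DMSO replicate 2.

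**Figure D1:**
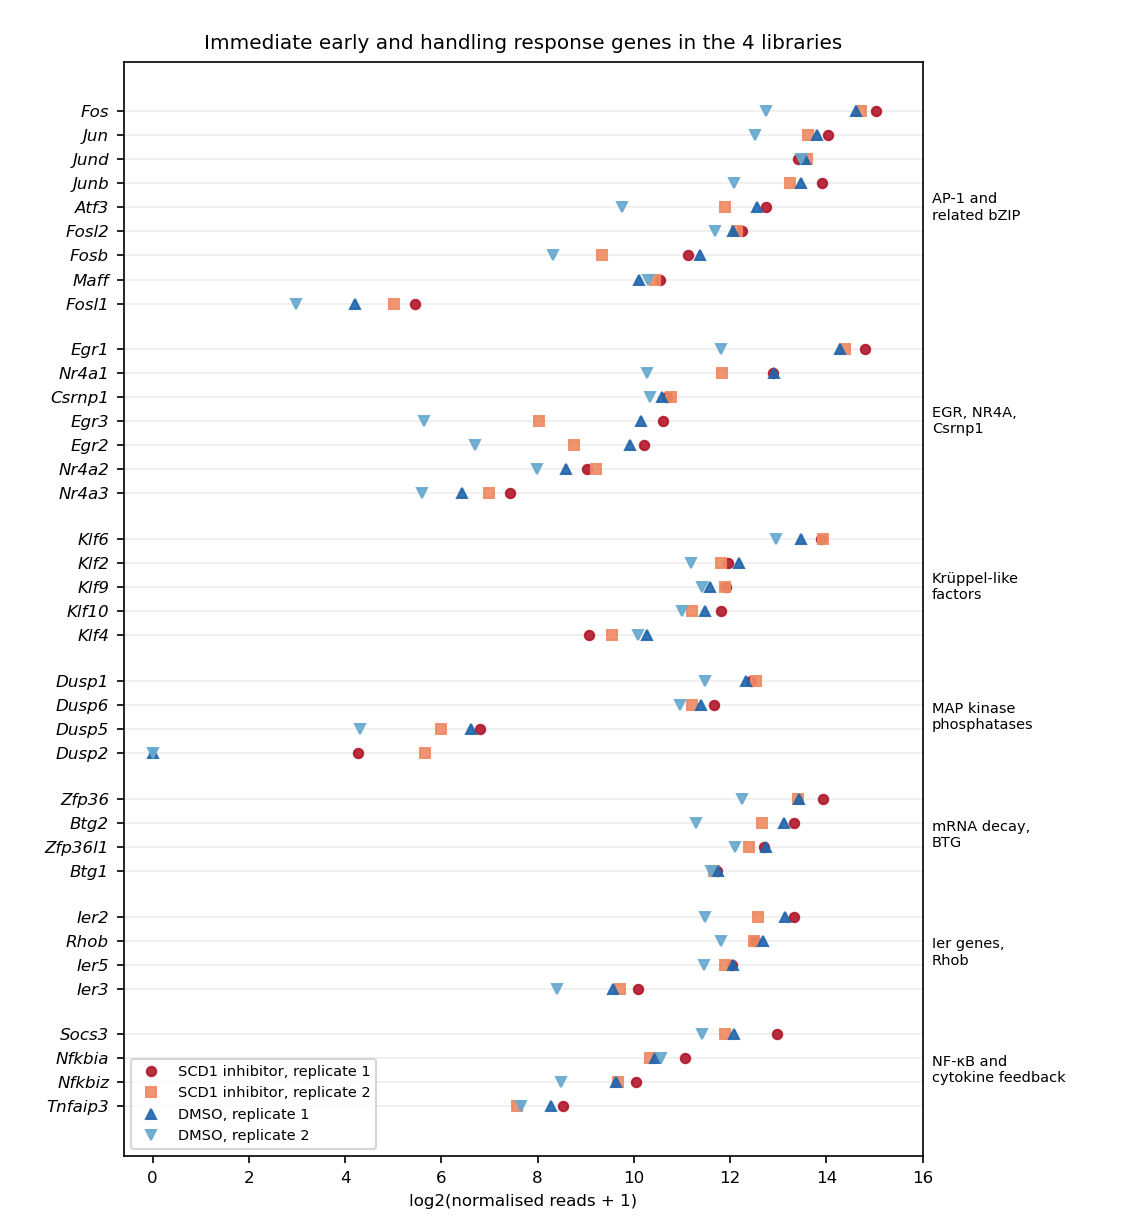
Level of each of the 37 genes in every library, as log2(normalised reads + 1), with genes grouped by role and ordered by mean within a role. Each symbol is 1 library (red and orange, SCD1 inhibitor; dark and light blue, DMSO). The light blue symbols, DMSO replicate 2, lie left of the others for 30 of the 35 genes tested, and Klf4 is the only gene tested with both inhibitor libraries left of both DMSO libraries.

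Against DMSO, 1 of the 35 genes passed in the SCD1 inhibitor libraries. Klf6 rose 1.62-fold, and 34 of the 35 log2 fold changes were positive, with a median of 0.58 (1.50-fold). The median over all 13810 genes tested was 0.0056. Klf4 had the one negative value, -0.85. limma called 1.36% of all genes higher and 0.427% lower at an adjusted p under 0.05, so the 1 gene called higher and the 0 called lower among the 35 are near the background. At an unadjusted p under 0.05 there were 14 of the 35 (40.0%), 13 of them higher, against 14.1% of all genes tested. Both inhibitor libraries lay above both DMSO libraries for 12 of the 35 (34.3%), against 22.7% of all genes, and below them for Klf4 alone, against 22.2% of all genes.

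The median depended on which DMSO library was left out. It was 0.036 without DMSO replicate 2, 1.0 without DMSO replicate 1, and 0.26 and 0.69 without the first and the second inhibitor library. Without DMSO replicate 1, limma called 23 of the 35 genes higher, against 4.76% of all genes tested. Without DMSO replicate 2 it called 1 of the 35, Klf6, against 1.76% of all genes. With a single DMSO library left, that library is assumed to vary like the others.

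**Figure D2:**
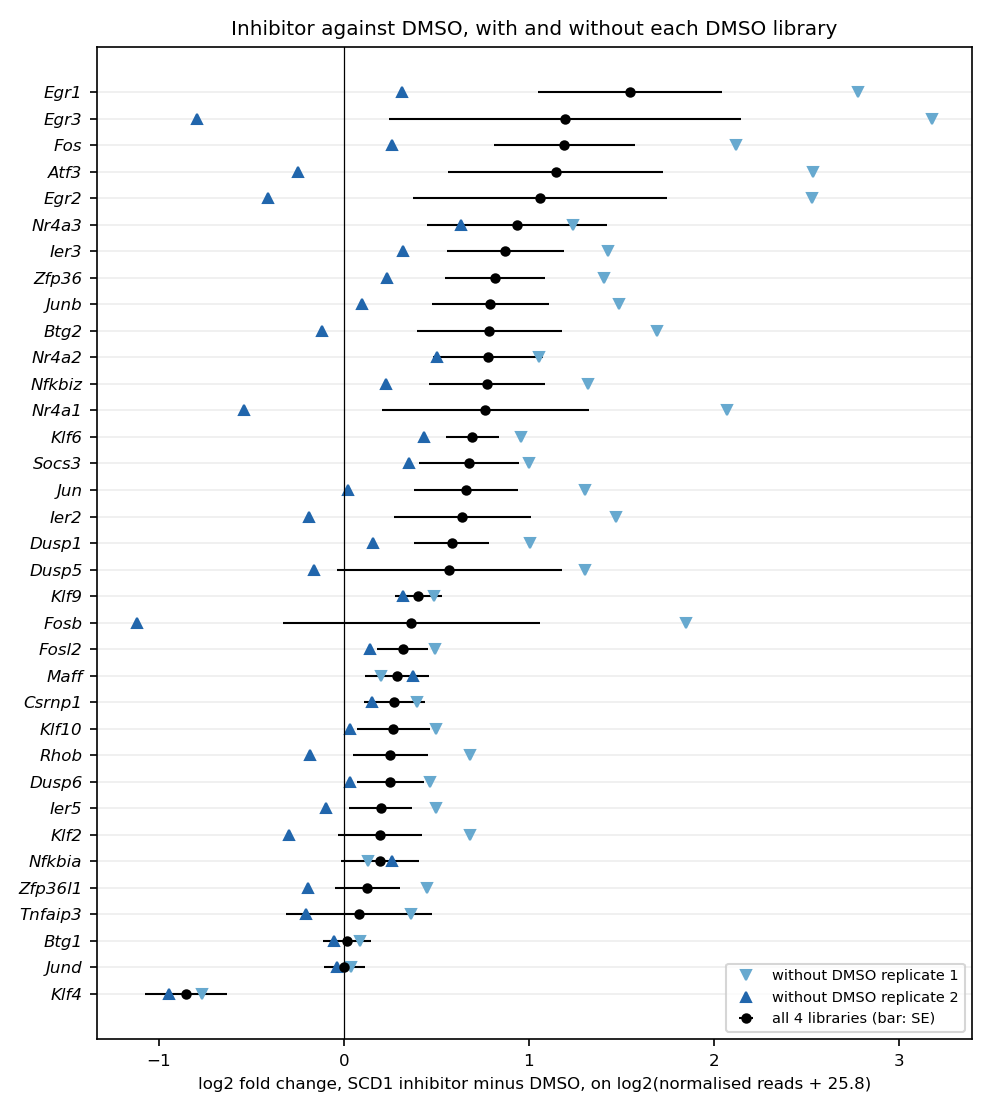
log2 fold change of SCD1 inhibitor over DMSO on log2(normalised reads + 25.8) for the 35 genes tested, ordered by size. Black points and bars give the value and its standard error from all 4 libraries, and blue triangles the value without DMSO replicate 1 (pointing down) or without DMSO replicate 2 (pointing up). Egr1 sits at 1.55 with all 4 libraries, at 2.78 without DMSO replicate 1 and at 0.31 without DMSO replicate 2. The 3 points of Klf6, Klf9 and Klf4 stay on 1 side of 0, as do those of Egr1, Fos, Jun and further genes.

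The group holds 5 Krüppel-like factors, zinc finger proteins that bind GC-rich DNA. Klf6, an early-induced factor of injured epithelium and other tissues, is at chr13:5861482-5870394 on the plus strand (GRCm38). It had 15218 and 15583 normalised reads in the SCD1 inhibitor libraries and 11409 and 7912 in the DMSO libraries. The groups did not overlap, and the 2 inhibitor libraries were nearly equal. The means were 15401 ± 258 in the SCD1 inhibitor group and 9661 ± 2472 in the DMSO group (SD, n = 2 each), and the log2 fold change was 0.70 ± 0.15 (SE, limma adjusted p = 0.0315). It stayed called without DMSO replicate 1 (0.96) or DMSO replicate 2 (0.43, limma adjusted p = 0.0397). Leaving out either inhibitor library ended the call (0.71 without the first and 0.68 without the second, limma adjusted p = 0.172 and 0.270). edgeR's quasi-likelihood test on the recovered reads also did not pass it (adjusted p = 0.116), whereas DESeq2 on the same reads did (adjusted p = 0.000478).

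Klf4, a factor of epithelial differentiation and growth arrest, had the one negative fold change. It had 535 and 747 normalised reads in the SCD1 inhibitor libraries and 1239 and 1091 in the DMSO libraries, again with no overlap. Its log2 fold change of -0.85 ± 0.22 missed the threshold (limma adjusted p = 0.0774). On the recovered reads DESeq2 passed it (-0.86, adjusted p = 0.0261) and edgeR did not (-0.86, adjusted p = 0.142). The value was between -0.62 and -1.08 whichever library was left out, and limma passed it in none of those fits. Without DMSO replicate 2 it was -0.94. Its 2 DMSO libraries lay close together, so DMSO replicate 2 was not low for this gene.

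Klf9, which glucocorticoids also induce, had 3865 and 3787 normalised reads in the SCD1 inhibitor libraries and 3063 and 2718 in the DMSO libraries. These groups did not overlap either, and the log2 fold change was 0.40 ± 0.13 (limma adjusted p = 0.161), and 0.32 without DMSO replicate 2. Klf2, known for the response of endothelium to flow, and Klf10, an early target of TGF-β, had groups that overlapped and log2 fold changes of 0.20 and 0.27 (-0.29 and 0.04 without DMSO replicate 2).

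AP-1 is a dimer of Fos and Jun proteins, or of relatives such as Atf3, a stress-induced repressor. Of the 9 genes with this role 8 were tested, all with positive log2 fold changes (median 0.51). None passed by limma, against 1.36% called higher and 0.427% lower over all genes tested. An unadjusted p under 0.05 was found for 4, against 14.1% of all genes tested. Fos, at chr12:85473890-85477273, was the most abundant of all 37 per length, at 10924 normalised reads per kilobase of transcript. It had 33440 and 26831 normalised reads in the SCD1 inhibitor libraries and 24972 and 6872 in the DMSO libraries. Both inhibitor libraries were above both DMSO libraries, but DMSO replicate 1 lay much nearer to them than to DMSO replicate 2. The log2 fold change of Fos was 1.19 ± 0.38 (limma adjusted p = 0.161), and 0.26 without DMSO replicate 2.

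Jun, the main partner of Fos, had 16692 and 12587 normalised reads in the SCD1 inhibitor libraries and 14270 and 5866 in the DMSO libraries. Junb had 15386 and 9699 normalised reads in the SCD1 inhibitor libraries and 11412 and 4349 in the DMSO libraries. For both genes DMSO replicate 1 fell between the 2 inhibitor libraries and DMSO replicate 2 was lowest. Their log2 fold changes were 0.66 ± 0.28 and 0.79 ± 0.32 (limma adjusted p = 0.307 and 0.281). Without DMSO replicate 2 they were 0.02 for Jun and 0.10 for Junb. Jund, the family member that most resting cells already express, differed from its relatives in being level. It had 10951 and 12494 normalised reads in the SCD1 inhibitor libraries and 11998 and 11364 in the DMSO libraries, a log2 fold change of 0.0025 ± 0.11 (-0.04 without DMSO replicate 2), and it lay second among the 37 per length (7016 normalised reads per kilobase).

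Fosb, a Fos relative that is strongly and briefly induced, had 2244.5 and 650.4 normalised reads in the SCD1 inhibitor libraries and 2662 and 318 in the DMSO libraries. The 2 libraries of each group differed more than the groups did, and the log2 fold change was 0.37 ± 0.69, and -1.12 without DMSO replicate 2. Atf3 had 6909.5 and 3802 normalised reads in the SCD1 inhibitor libraries and 6082 and 863 in the DMSO libraries, and a log2 fold change of 1.14 ± 0.58 (limma adjusted p = 0.406) that became -0.25 without DMSO replicate 2. Fosl2 and Maff, a small Maf protein, had no overlap between the groups and log2 fold changes of 0.32 and 0.29 that did not pass (0.14 and 0.38 without DMSO replicate 2). Fosl1 had 43.0 and 31.5 normalised reads in the SCD1 inhibitor libraries and 17.5 and 6.94 in the DMSO libraries, and was not tested.

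EGR proteins are zinc finger factors induced through MAP kinases and SRF, the NR4A proteins are orphan nuclear receptors whose activity follows their amount, and Csrnp1 is a nuclear protein induced by axin. All 7 genes of this kind had positive log2 fold changes (median 0.94). All 7 were lowest in DMSO replicate 2, against 29.2% of all genes tested. None passed by limma, and 2 had an unadjusted p under 0.05, against 14.1% of all genes tested. Egr1 had 28767 and 21463 normalised reads in the SCD1 inhibitor libraries and 19994 and 3598 in the DMSO libraries. Its log2 fold change, 1.55 ± 0.50 (limma adjusted p = 0.163), was the highest of the 35. Without DMSO replicate 2 it was 0.31.

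Egr2 had 1191 and 430.1 normalised reads in the SCD1 inhibitor libraries and 963 and 103 in the DMSO libraries. Egr3, at chr14:70077203-70082614, had 1560.4 and 260.2 normalised reads in the SCD1 inhibitor libraries and 1140.4 and 48.6 in the DMSO libraries. In both genes replicate 1 of either group was far above replicate 2, and the groups overlapped. The log2 fold changes were 1.06 ± 0.68 for Egr2 and 1.19 ± 0.95 for Egr3 (limma adjusted p = 0.536 and 0.630), and -0.41 and -0.79 without DMSO replicate 2.

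Nr4a1 followed the same pattern, with 7628 and 3655 normalised reads in the SCD1 inhibitor libraries and 7693 and 1239 in the DMSO libraries. The highest value of Nr4a1 was thus in a DMSO library, and its log2 fold change of 0.76 ± 0.56 became -0.54 without the other DMSO library. Nr4a3 had 172 and 126 normalised reads in the SCD1 inhibitor libraries and 85.8 and 47.6 in the DMSO libraries, without overlap, and a log2 fold change of 0.94 ± 0.49 (limma adjusted p = 0.419). Nr4a2 had 521 and 596 normalised reads in the SCD1 inhibitor libraries and 386 and 255 in the DMSO libraries. Nr4a2 and Nr4a3 had both inhibitor libraries above both DMSO libraries, and their values without DMSO replicate 2 were 0.50 and 0.63. The log2 fold change of Csrnp1 was 0.27, and 0.15 without DMSO replicate 2.

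The dual-specificity phosphatases remove phosphate from MAP kinases. Dusp1, which acts mainly on the stress kinases p38 and JNK, had 5517 and 5955 normalised reads in the SCD1 inhibitor libraries and 5136 and 2837 in the DMSO libraries. Its groups did not overlap, and its log2 fold change of 0.58 ± 0.20 did not pass (limma adjusted p = 0.201) and was 0.16 without DMSO replicate 2. Dusp6 and Dusp5, which act on ERK, had overlapping groups and log2 fold changes of 0.25 and 0.57 (0.04 and -0.16 without DMSO replicate 2). Dusp2, a nuclear phosphatase of immune cells, was read 19 and 47 times in the SCD1 inhibitor libraries and was at 0 in both DMSO libraries. A count of 0 was taken to allow up to 3 counts in each DMSO library, and the mean of the inhibitor libraries was 11.4 times that limit. This ratio rests on few reads. It leaves out the counting error of the 19 and 47 reads and the spread between the libraries, and Dusp2 was not tested.

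Zfp36 encodes tristetraprolin, which binds AU-rich elements and brings bound mRNAs to deadenylation, and Zfp36l1 is its relative. Zfp36 had 15545 and 10863 normalised reads in the SCD1 inhibitor libraries and 11064 and 4893 in the DMSO libraries, and a log2 fold change of 0.82 ± 0.27 (limma adjusted p = 0.174). Btg2, an antiproliferative partner of the deadenylase complex, had 10299 and 6497 normalised reads in the SCD1 inhibitor libraries and 8876 and 2514 in the DMSO libraries, and a log2 fold change of 0.79 ± 0.39. In both genes DMSO replicate 1 exceeded SCD1 inhibitor replicate 2, and without DMSO replicate 2 the log2 fold changes were 0.23 for Zfp36 and -0.12 for Btg2. Zfp36l1 had 6643 and 5410 normalised reads in the SCD1 inhibitor libraries and 6848 and 4390 in the DMSO libraries. Btg1 had 3402 and 3230 normalised reads in the SCD1 inhibitor libraries and 3435 and 3118 in the DMSO libraries. The last pair differed little between groups, at 0.13 and 0.02 (-0.19 and -0.05 without DMSO replicate 2).

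Ier2, a nuclear early response protein, had 10364 and 6104 normalised reads in the SCD1 inhibitor libraries and 9053 and 2858 in the DMSO libraries, a log2 fold change of 0.64 ± 0.37 that became -0.19 without DMSO replicate 2. Ier3, which modulates cell survival, had 1086 and 839 normalised reads in the SCD1 inhibitor libraries and 760.3 and 339 in the DMSO libraries. Its groups did not overlap, and its log2 fold change was 0.87 ± 0.32 (limma adjusted p = 0.221), and 0.32 without DMSO replicate 2. Ier5 and Rhob, an inducible small GTPase, were at 0.20 and 0.25 with overlapping groups (-0.10 and -0.18 without DMSO replicate 2).

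A set of 4 genes feeds back on NF-κB or cytokine signals. Socs3, the inhibitor of JAK-STAT signalling from IL-6 family receptors, had 8004.5 and 3789 normalised reads in the SCD1 inhibitor libraries and 4310 and 2741 in the DMSO libraries. SCD1 inhibitor replicate 1 stood well above the rest. The log2 fold change of Socs3 was 0.68 ± 0.27 (limma adjusted p = 0.280), 0.35 without DMSO replicate 2, and 0.14 with the first inhibitor library left out. Without the second inhibitor library it was 1.21, and Socs3 alone of the 35 passed in that fit (limma adjusted p = 0.0269). Nfkbiz, a nuclear co-activator of a subset of NF-κB targets, had a log2 fold change of 0.77 with no overlap, and 0.23 without DMSO replicate 2.

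Nfkbia, the inhibitor IκBα, had 2126 and 1289 normalised reads in the SCD1 inhibitor libraries and 1379 and 1511 in the DMSO libraries. Tnfaip3, the ubiquitin-editing enzyme A20, had 367 and 189 normalised reads in the SCD1 inhibitor libraries and 308 and 200.2 in the DMSO libraries. Neither gene was lowest in DMSO replicate 2, and the groups overlapped in both, with log2 fold changes of 0.19 ± 0.21 and 0.08 ± 0.39 (limma adjusted p = 0.739 and 0.952). Without DMSO replicate 2 they were 0.26 and -0.20.

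The 2 libraries of a group differed more in these genes than in most others. In the DMSO pair the median absolute difference was 0.85 on the log2 scale (1.80-fold) over the 35 genes and 0.26 (1.20-fold) over all genes tested. DMSO replicate 1 was the higher library for 33 of the 35, and it was over 2-fold above DMSO replicate 2 for 15 of them, against 3.16% of all genes tested. No gene of the 35 was 2-fold higher in DMSO replicate 2. In the SCD1 inhibitor pair the median absolute difference was 0.41 (1.33-fold) over the 35 genes and 0.20 (1.15-fold) over all genes. Replicate 1 was the higher inhibitor library for 29 of the 35, and over 2-fold above replicate 2 for 5, against 2.88% of all genes.

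The widest gaps belonged to transcription factors. Egr3 differed 15.7-fold between the 2 DMSO libraries, which ranked it 2 of 13810 genes, and 5.55-fold between the 2 SCD1 inhibitor libraries, rank 8. In the DMSO pair the gap was 7.81-fold for Fosb, 7.67-fold for Egr2 and 6.87-fold for Atf3. It was 6.10-fold for Nr4a1, 5.52-fold for Egr1 and 3.62-fold for Fos. Jund and Btg1 differed 1.06-fold and 1.10-fold in that pair. The 5 genes over 2-fold apart in the inhibitor pair were Fosb, Egr2, Egr3, Nr4a1 and Socs3, of which the first 4 were also over 2-fold apart in the DMSO pair.

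Across the 35 genes the difference in the SCD1 inhibitor pair and that in the DMSO pair had r = 0.78, and over all 13810 genes r = 0.07. This is a description across genes that were all read from the same 4 libraries, and the labels do not say what a replicate number stands for.

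**Figure D3:**
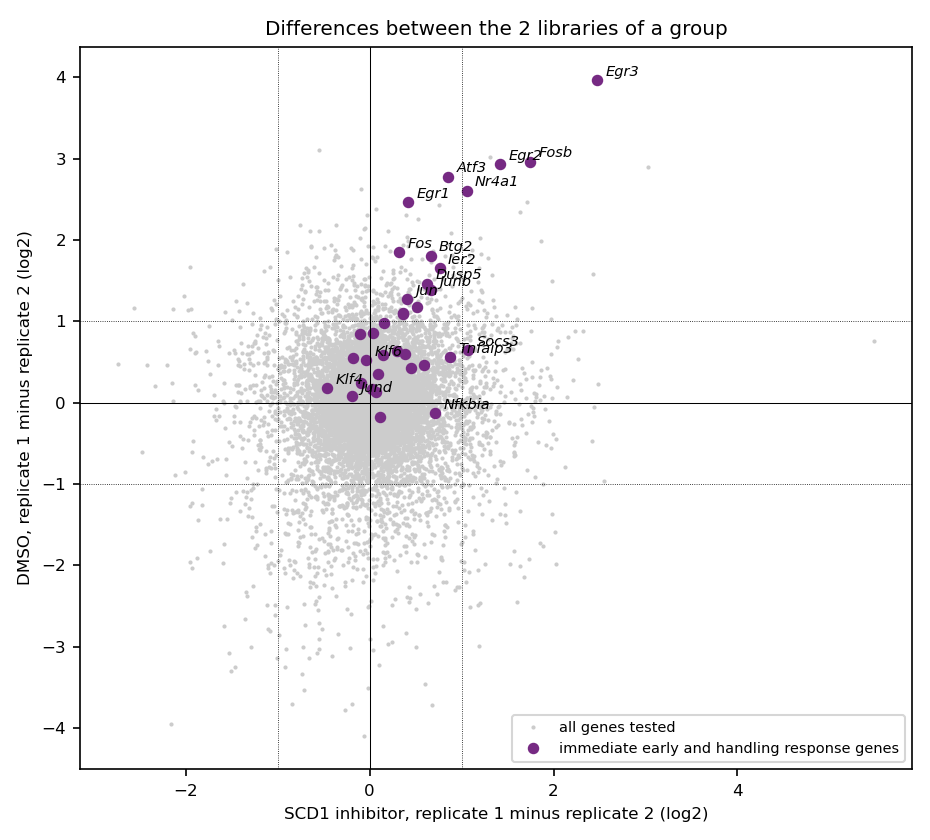
Difference between the 2 libraries of a group on the log2(normalised reads + 25.8) scale, replicate 1 minus replicate 2, with the SCD1 inhibitor pair on the horizontal and the DMSO pair on the vertical axis. Purple points are the 35 genes and grey points all 13810 genes tested, and dotted lines mark 2-fold. Of the 35 genes, 15 lie above the upper dotted line and none below the lower one, with Egr3 farthest out at 2.47 and 3.97.

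Further genes known as immediate or delayed early genes gave smaller shares. Of 54 listed, 48 were tested, 29 with positive and 19 with negative log2 fold changes (median 0.05). None passed by limma, and 6 had an unadjusted p under 0.05, against 14.1% of all genes tested. DMSO replicate 2 was lowest for 22 of the 48, against 29.2% of all genes tested. DMSO replicate 1 was over 2-fold above DMSO replicate 2 for 7 of the 48, against 3.16% of all genes tested. These 7 were Ccn1, Phlda1, Ptgs2, Hbegf, Lif, Thbs1 and Arc. The smallest p-values belonged to the stress gene Gadd45a, with 1112 and 986 normalised reads in the SCD1 inhibitor libraries and 714 and 599 in the DMSO libraries, and to Tiparp, a target of the aryl hydrocarbon receptor (log2 fold changes 0.66 and 0.45, limma adjusted p = 0.163 and 0.192). Arc, named after its values were seen, had 4390 and 1755 normalised reads in the SCD1 inhibitor libraries and 3182 and 371 in the DMSO libraries, which is the library order of Egr2.

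The genes acting upstream had a median log2 fold change near 0. Of 37 MAP kinase pathway and activator genes tested, 19 had positive and 18 negative log2 fold changes, and DMSO replicate 1 was 2-fold above DMSO replicate 2 for none. Srf, which encodes the factor that binds CArG boxes in Fos and Egr genes, rose. It had 6907 and 6035 normalised reads in the SCD1 inhibitor libraries and 4673 and 3623 in the DMSO libraries (log2 fold change 0.65 ± 0.14, limma adjusted p = 0.0357), and its groups did not overlap. The call was lost without SCD1 inhibitor replicate 1 (0.55), SCD1 inhibitor replicate 2 (0.74) or DMSO replicate 2 (0.46). It was also lost in edgeR and in other fits with all 4 libraries, and kept in DESeq2 on the recovered reads (adjusted p = 0.00148). Of 25 NF-κB pathway genes none passed (median log2 fold change -0.03, limma, 2 at an unadjusted p under 0.05, Cyld and Tab1). Of 25 genes of the mRNA decay machinery none passed (median 0.11, limma, 3 at an unadjusted p under 0.05, Xrn1 with the smallest). Over all genes tested 14.1% had an unadjusted p under 0.05.

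Heat shock chaperones, a group that tissue dissociation can also induce, were divided. Of 19 tested, 9 had positive and 10 negative log2 fold changes. By limma 1 rose and 2 fell, against 1.36% called higher and 0.427% lower over all genes tested. Hsp90aa1, the inducible cytosolic HSP90, had 23095 and 28675 normalised reads in the SCD1 inhibitor libraries and 19313 and 14250 in the DMSO libraries (log2 fold change 0.63 ± 0.15, limma adjusted p = 0.0463), and lost its call without DMSO replicate 2 or either inhibitor library (0.41 to 0.79). Hspa1b, an inducible HSP70 gene, had 624 and 652 normalised reads in the SCD1 inhibitor libraries and 1358 and 1173 in the DMSO libraries (-0.96 ± 0.20, limma adjusted p = 0.0315). Its near-identical copy Hspa1a also fell (-1.25, limma adjusted p = 0.0473), and reads of the 2 copies may have been split between them. Both lost their calls without either inhibitor library (-0.93 to -1.57 for Hspa1a and -0.93 to -0.99 for Hspa1b), and Hspa1a also without DMSO replicate 1 (-0.997). The calls of Hsp90aa1, Hspa1a and Hspa1b were also lost in edgeR and in other fits with all 4 libraries. DESeq2 on the recovered reads kept them (adjusted p = 0.000935, 0.00596 and 0.00154). DMSO replicate 2 was the lowest library for 10 of the 19, against 29.2% of all genes tested. It was the lowest for neither gene of the HSP70 pair.

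**Figure D4:**
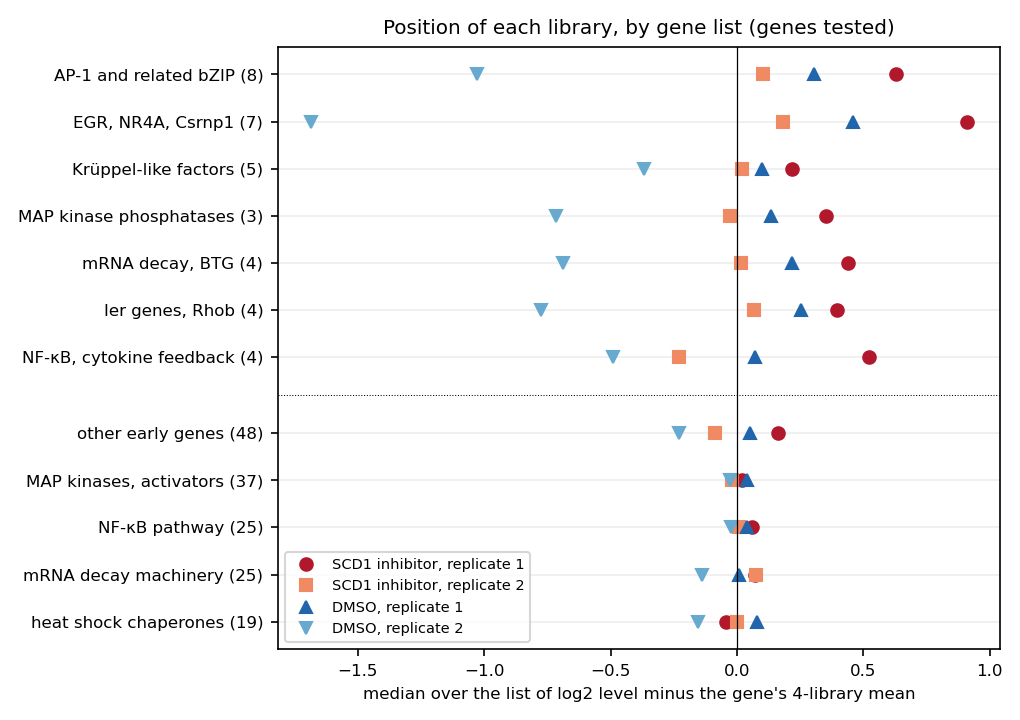
Median over each gene list of the log2 level minus the gene's mean over the 4 libraries, with 1 symbol per library and the number of genes tested in brackets. Above the dotted line are the 7 role groups of the immediate early and handling response genes, where DMSO replicate 2 is lowest in every group, at -1.69 for EGR, NR4A and Csrnp1 and at -0.37 for the Krüppel-like factors. Below it are lists of related genes, in which all 4 libraries lie within 0.23 of 0.

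Cell type markers also differed between the groups. Of 10 goblet cell markers tested 6 fell (Clca1, for example, had 8106 and 15504 normalised reads in the SCD1 inhibitor libraries and 48387 and 35269 in the DMSO libraries), as did 6 of 11 club cell and 5 of 12 alveolar type 2 markers. None of the 6 basal, 8 common epithelial, 13 endothelial and 11 stromal markers tested passed by limma. Of these 4, 1, 1 and 4 had an unadjusted p under 0.05, in that order. Over all genes tested limma called 1.36% higher and 0.427% lower, and 14.1% had an unadjusted p under 0.05. Log2 fold changes were positive for 0 of the 6 basal and 5 of the 8 common epithelial markers (medians -1.30 and 0.15). They were positive for 3 of the 13 endothelial and 10 of the 11 stromal markers (medians -0.24 and 0.65). Of the leukocyte markers 1 of 12 fell, Cd74, and of the alveolar type 1 markers 1 of 8, Aqp5. Of the ciliated cell markers 1 of 12 rose, Ccdc39. How much these markers had to do with the immediate early levels was not tested.

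Most, but not all, of the genes have a compact structure, which the list did not use. The 35 tested had a median of 3 exons, against 9 over the 13029 tested genes matched to the annotation, and a median span of 5412 bases, against 25040. Spans under 10000 bases were found in 23 of the 35 (65.7%) and in 23.3% of all. The heptamer TATTTAT, a core of AU-rich elements, was found on the transcript strand of the 3′ untranslated region of 21 of the 35 (60.0%) and in 29.5% of 12974 genes. Ier3 had 4 such matches and Fosl2, Dusp1, Zfp36 and Zfp36l1 had 3 each, while none was found in Egr1, Egr2, Egr3, Ier2 or Nr4a1. Exons of Fosl1, Jund, Dusp5, Zfp36, Zfp36l1 and Csrnp1 overlap exons of a gene on the opposite strand. The sources used here do not say whether counting used strand, so reads of these 6 genes are uncertain.

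RefSeq promoter windows (GRCm38.p6, from 250 bases before to 50 after a gene's start) were at hand for 31 of the 37 genes and for 27025 genes in all, and were searched on both strands. The CArG box, where SRF binds, was found for 3 of the 31 (Dusp5, Egr2 and Zfp36, 9.68%) and for 1.81% of all genes. The cAMP response element TGACGTCA was found for 3 (Btg2, Dusp1 and Maff, 9.68%) and for 2.03% of all. The NF-κB site was found for 7 (22.6%), Nfkbia and Tnfaip3 among them, and for 6.55% of all. The AP-1 letters TGANTCA were found for 4 (12.9%) and for 8.97% of all, and TATAAA for 7 (22.6%) and for 15.7% of all. The letters of TGACGTCA and TGANTCA cannot fall on the same bases, whereas TATAAA can lie inside a CArG box. These are matches of letters, not bound sites. No window was at hand for Egr1, Egr3, Fosl1, Ier2, Klf10 or Nfkbiz. Sites outside the windows were not searched, so a gene without a match may still have the element. The 250 bases before the start are printed for 4 genes, 2 with a CArG box and 2 with a cAMP response element, since these are the elements through which SRF and CREB are known to switch on immediate early genes. Capitals mark the motif.
Egr2 (chr10:67537316-67537565, plus strand, 1 of several RefSeq starts): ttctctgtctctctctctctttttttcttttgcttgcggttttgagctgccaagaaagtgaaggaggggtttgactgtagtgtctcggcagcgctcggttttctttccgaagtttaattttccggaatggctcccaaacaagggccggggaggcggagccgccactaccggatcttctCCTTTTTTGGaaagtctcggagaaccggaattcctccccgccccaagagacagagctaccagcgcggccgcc
Zfp36 (chr7:28379229-28379478, minus strand): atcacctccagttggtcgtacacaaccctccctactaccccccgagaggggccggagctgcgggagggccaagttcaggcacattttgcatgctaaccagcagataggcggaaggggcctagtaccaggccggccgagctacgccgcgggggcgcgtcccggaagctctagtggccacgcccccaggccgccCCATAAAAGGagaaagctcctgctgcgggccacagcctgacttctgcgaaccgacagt
Dusp1 (chr17:26508473-26508722, minus strand): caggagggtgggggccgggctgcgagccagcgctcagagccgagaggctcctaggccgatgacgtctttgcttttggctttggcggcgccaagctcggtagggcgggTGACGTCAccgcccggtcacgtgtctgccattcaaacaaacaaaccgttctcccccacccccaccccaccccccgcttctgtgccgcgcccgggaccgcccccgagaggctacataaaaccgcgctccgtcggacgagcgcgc
Btg2 (chr1:134079156-134079405, minus strand): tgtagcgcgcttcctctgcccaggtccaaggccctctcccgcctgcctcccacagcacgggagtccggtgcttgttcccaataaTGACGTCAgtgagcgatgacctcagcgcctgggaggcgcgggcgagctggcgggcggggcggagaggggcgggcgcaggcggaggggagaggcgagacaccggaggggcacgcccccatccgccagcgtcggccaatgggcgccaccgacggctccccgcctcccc
The CArG box begins 72 bases before the start in Egr2 and 58 in Zfp36, and the cAMP response element 143 bases before it in Dusp1 and 166 in Btg2. These 4 genes differed between the 2 DMSO libraries by 7.67-fold, 2.25-fold, 1.80-fold and 3.50-fold in that order, with DMSO replicate 1 higher. Of the 2 other genes with such an element, Dusp5 was also higher in DMSO replicate 1 (2.76-fold), and Maff, with 1103 normalised reads in DMSO replicate 1 and 1250 in DMSO replicate 2, was not. DMSO replicate 1 was the higher library for 33 of the 35 genes tested, with or without such an element.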

How the data were processed

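RNA sequencing of 4 libraries was analysed, 2 per group. Per the labels' protocols, RNA from sorted cells was purified with TRIzol, and 5 ng of it went into each directional library. HOMER, DESeq2 and mm10 appear in the submitters' processing notes. Not given in the sources used here are the aligner, the read filters and any use of strand. The authors' deposited signal values were reads of a gene over the library's size factor: every value was a whole multiple of a library's smallest step (100% within 0.01), although for DMSO replicate 2 the step (0.991) is so near 1 that its size alone does not separate it from rounding. Multiplying by the size factor gave the recovered reads, used only in the edgeR 4.0.16 and DESeq2 1.42.0 fits.

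Values were tested as log2(value + 25.8) with limma 3.58.1 (R 4.3.3, intensity trend, group as the only term) over genes with a mean of at least 25.8, with Benjamini-Hochberg adjustment over all 13810 and a threshold of 0.05. Folds are on that scale, which understates the change of low genes. Counting error at the floor is 19.7% in 1 library and covers counting only. The fits were run on simulated counts with the same dispersion for every gene and no library set apart. That run does not show how they behave when a library stands apart. Coordinates, exons and untranslated regions come from GENCODE M21 (GRCm38, which is mm10), matched by symbol for all 37 genes.

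The genes, their roles and the other lists were chosen with earlier results of these data known. Values in every library are given for genes that passed, the 10 with the highest mean, the 6 highest and 6 lowest log2 fold changes and the 6 widest gaps within a group, with further genes added for their roles. From other lists the genes that passed are named, or else those of smallest p. Alternatives were a replicate block, other pseudocounts and floors, 2 other scalings, no trend, edgeR, DESeq2 and leaving out each library.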

Additional observations from a re-analysis of the deposited data

How the results depend on the processing

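The counts of calls depended on the fit. Over all genes, limma called 188 higher and 59 lower. The replicate block gave 469 higher and 205 lower, no floor 51 and 13, no intensity trend 0 and 0, edgeR 33 and 9, and DESeq2 381 and 170, while a pseudocount of 1 gave 36 lower. Leaving out 1 library gave 22 to 659 higher and 19 to 204 lower. Among the 35 immediate early and handling response genes, 1 was called higher and 0 lower. The replicate block called 16 higher and 1 lower (Klf4), DESeq2 called 1 lower, and no floor, no intensity trend and edgeR called 0 higher. Leaving out 1 library gave 0 to 23 higher, and moved the median log2 fold change between 0.036 and 1.0. The counts higher were 659 without DMSO replicate 1, and 24 and 22 without the first and the second inhibitor library. The labels do not say that equal replicate numbers mark a shared source, and the correlation of replicate differences between the groups over all genes was 0.0734, and 0.78 over the 35. Outside the 35, Srf, Hsp90aa1, Hspa1a and Hspa1b lost their calls in edgeR, with no floor and with no intensity trend. DESeq2 and the replicate block kept their calls. A pseudocount of 1 ended those of Srf, Hsp90aa1 and Hspa1a, and TMM scaling those of Hsp90aa1 and Hspa1a. A larger floor ended that of Hsp90aa1, and equal library totals that of Hspa1a.

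The sign of some log2 fold changes turned. That of Fosb (0.37) was -0.043 in edgeR and -0.042 in DESeq2, and that of Jund (0.0025) was -0.0079 with TMM scaling. Leaving out 1 library gave ranges that crossed 0 for 17 of the 35 genes: Fosb -1.12 to 1.85, Jund -0.092 to 0.097, Egr2 -0.41 to 2.53, Egr3 -0.79 to 3.18, Ier2 -0.19 to 1.47 and Zfp36l1 -0.19 to 0.45. Further ranges were Btg1 -0.051 to 0.088, Btg2 -0.12 to 1.69, Nr4a1 -0.54 to 2.07, Atf3 -0.25 to 2.54, Nfkbia -0.16 to 0.55 and Tnfaip3 -0.36 to 0.52. The remaining 5 were Dusp5 -0.16 to 1.30, Klf2 -0.29 to 0.68, Rhob -0.18 to 0.68, Ier5 -0.10 to 0.50 and Klf10 -0.03 to 0.57. The cause was not tested. With 2 libraries per group, a library that stands apart cannot be told from spread within its group, and genes near the floor, such as Nr4a3 and Dusp5, carry the most counting error.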
